A study of Mus musculus with 10 samples.

Results

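Among 94486 peaks on chromosomes 1 to 19, 29 were at least 2 times as open in every lung library as in any spleen library of regulatory T (Treg) cells, in both genotypes, and reached a minimum level in lung. The full table held 97385 peaks. These lung Treg peaks were chosen by CPM (each count divided by its library total and multiplied by 1000000): the lowest of the 4 lung libraries had to be at least 2 times the highest of the 6 spleen libraries, and at least 3 CPM. The difference between lung and spleen at these peaks is therefore how they were selected and is given as a description, with no test. The same rule turned round, with spleen over lung, was met by 60 peaks.

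The libraries measured chromatin accessibility by ATAC-seq, in which a transposase cuts open DNA and the fragments are counted in peaks. Treg cells were sorted by the T cell receptor beta chain, CD4 and a Foxp3-linked YFP from 10-day-old C57BL/6 mice. There were 2 control and 4 Vps34-deficient libraries from spleen and 2 of each genotype from lung. All the mice, controls included, carried Foxp3-Cre, a Cre recombinase with YFP expressed from the Foxp3 gene, which acts in Treg cells. Controls kept 1 or 2 intact copies of Pik3c3, the gene of Vps34 (Foxp3-Cre Pik3c3 +/+ or +/fl), and Vps34-deficient mice had both copies floxed (Foxp3-Cre Pik3c3 fl/fl). Both genotypes were drawn from both tissues, and lung, unlike spleen, was digested with collagenase before sorting, so tissue and digestion cannot be told apart. The study's methods give the sizes of the spleen groups the other way round from the labels. The labels were followed, and every spleen genotype value and interaction below rests on them. Accessibility is no measure of Vps34 itself, so the deletion was not checked here. The labels do not say whether each library came from 1 mouse, and the p-values measure the spread between these libraries. The study used mice of both sexes, and its methods do not give the sex behind each library.

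Treg cells restrain other immune cells, and their identity rests on the transcription factor Foxp3. Some stay in lymphoid organs such as the spleen, while others settle in tissues such as the lung, where they change which regulatory elements are open. Most such elements are enhancers, which lie in introns or between genes and can act on a gene over long distances. Vps34 is the class III phosphoinositide 3-kinase, a lipid kinase needed for autophagy and for traffic through endosomes. The question put to these peaks was where they lie, near which genes, and whether they depend on Vps34 in lung or spleen.

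Library totals ran from 9405823 to 14172956 counts in lung and from 13932355 to 22439699 in spleen. Members of the set had at least 29 counts in every lung library and at least 4 in every spleen library. Between 91.4% and 96.4% of the nonzero counts in a library were even numbers, as when both reads of a fragment are counted, so independent fragments are fewer than the counts. The 10 Treg and T cell identity genes (among them Foxp3, Il2ra, Ctla4 and Cd3e) all had peaks in or within 10 kb of the gene, summing to 1242 to 1734 CPM in lung and 1451 to 1704 CPM in spleen libraries.

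Lung control replicate 2 stood apart in how it met the rule. Without it, 762 peaks passed in place of 29, and the 29 were 3.81% of those. At the 733 peaks lost to this library its median was 3.53 CPM, against 7.37 CPM for the mean of the other lung libraries and 2.94 CPM for the highest spleen library. It was still above every spleen library at 543 of the 733. The 762 peaks had a median width of 211 bases, against 410 for the 29. Of the 762, 95.8% were narrower than 300 bases, against 31.0% of the 29 and 42.7% of all autosomal peaks. Lung control replicate 2 had the largest total of the lung libraries (14172956 counts, against 9405823 to 12312928). Its sum at the Treg and T cell identity genes was also the highest in lung (1734 CPM, against 1242 to 1465 CPM). Why this library was lower at the 733 peaks was not tested. Leaving out any other library gave between 31 peaks (without spleen Vps34-deficient replicate 3) and 56 peaks (without lung Vps34-deficient replicate 1). The number of lung Treg peaks was thus set mainly by 1 of the 2 lung control libraries.

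**Figure D1:**
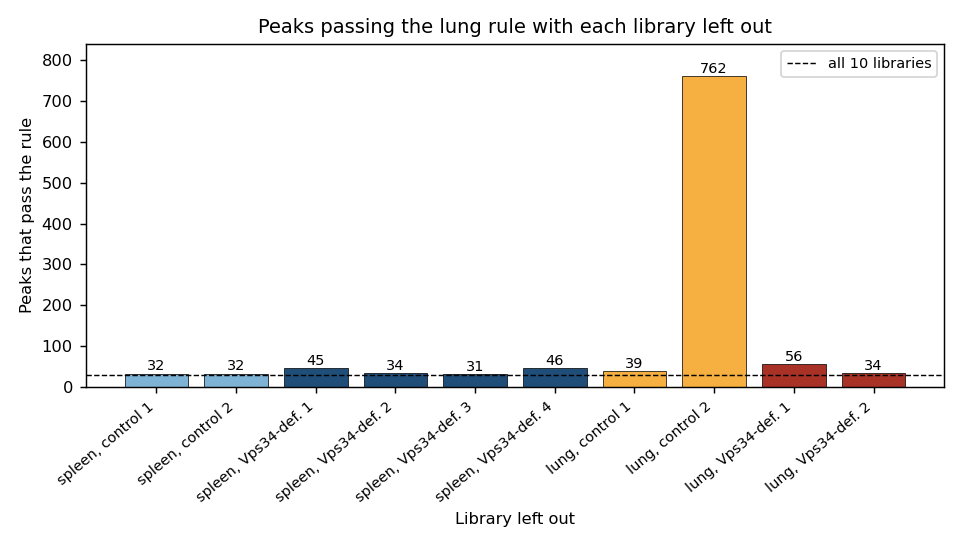
Peaks that pass the lung rule when each of the 10 libraries is left out in turn (bars, number of peaks), with the 29 peaks of all 10 libraries as a dashed line. Leaving out lung control replicate 2 gives 762 peaks, and each of the others 31 to 56.

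The members fell at 26 places in the genome, counting members within 300 kb of each other as 1 place. Each is named here by its nearest protein-coding start, with a number in order of position where a gene has several, and this name does not show which gene a peak acts on. Dusp10 had 3 members, Hip1r 2, and each of 24 other genes 1. The sequences below are those of the most open members (Baiap2l1 and Sptssa), of the member with the largest ratio of lowest lung to highest spleen library (Dusp10-3), and, chosen after their values were seen, of the 2 other Dusp10 members, of the members at Tnfaip3 and Runx2 and of the member with the lowest lung genotype value (Nav2). They are the central 300 bases of each peak, or the whole peak where shorter, on the plus strand of GRCm38 as given in RefSeq, and capitals mark matches to any of 14 motifs spelled out further on.

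The Dusp10 members are shown because no other gene had 3 of them. Their windows are chr1:183803583-183803882, chr1:183933889-183934188 and chr1:184075812-184076111. The capitals mark a GATA and an AP-1 match in the first, RUNX, IRF and AP-1 matches in the second, and the third had none.
Dusp10-1: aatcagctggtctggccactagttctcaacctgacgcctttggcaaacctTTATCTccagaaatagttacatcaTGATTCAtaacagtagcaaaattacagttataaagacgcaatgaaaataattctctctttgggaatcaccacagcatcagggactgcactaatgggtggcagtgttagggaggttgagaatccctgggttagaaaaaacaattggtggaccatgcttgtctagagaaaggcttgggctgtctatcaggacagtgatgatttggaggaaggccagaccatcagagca
Dusp10-2: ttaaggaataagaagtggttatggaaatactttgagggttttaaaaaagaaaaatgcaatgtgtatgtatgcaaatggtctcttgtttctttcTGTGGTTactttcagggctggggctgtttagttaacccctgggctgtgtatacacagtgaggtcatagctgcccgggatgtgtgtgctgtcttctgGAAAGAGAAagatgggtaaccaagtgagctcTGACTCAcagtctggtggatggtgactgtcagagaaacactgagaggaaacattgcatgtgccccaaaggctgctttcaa
Dusp10-3: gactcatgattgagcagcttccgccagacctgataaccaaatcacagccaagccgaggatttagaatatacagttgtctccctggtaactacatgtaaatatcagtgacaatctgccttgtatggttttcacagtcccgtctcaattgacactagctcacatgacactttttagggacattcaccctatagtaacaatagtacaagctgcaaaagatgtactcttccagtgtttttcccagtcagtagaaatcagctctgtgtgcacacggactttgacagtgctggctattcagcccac

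The members at Tnfaip3 (chr10:19000585-19000778), Runx2 (chr17:44745314-44745613) and Nav2 (chr7:49251318-49251617) follow. Tnfaip3 and Runx2 were the only members in or within 10 kb of a gene on the 8 gene lists, and capitals mark a FOX match in Runx2 and IRF, RUNX, GATA and FOX matches in Nav2, the middle pair overlapping. The reference marks 52.1% of the Tnfaip3 peak as repeat sequence.
Tnfaip3: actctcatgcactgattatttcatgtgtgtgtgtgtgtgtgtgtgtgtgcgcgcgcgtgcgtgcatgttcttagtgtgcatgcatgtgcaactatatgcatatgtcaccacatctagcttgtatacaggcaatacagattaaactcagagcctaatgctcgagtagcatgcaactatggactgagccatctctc
Runx2: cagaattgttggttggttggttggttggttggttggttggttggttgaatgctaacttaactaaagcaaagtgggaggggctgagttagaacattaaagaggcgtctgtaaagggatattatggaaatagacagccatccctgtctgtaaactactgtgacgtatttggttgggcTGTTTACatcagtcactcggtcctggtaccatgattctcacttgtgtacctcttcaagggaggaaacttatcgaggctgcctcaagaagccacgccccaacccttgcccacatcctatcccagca
Nav2: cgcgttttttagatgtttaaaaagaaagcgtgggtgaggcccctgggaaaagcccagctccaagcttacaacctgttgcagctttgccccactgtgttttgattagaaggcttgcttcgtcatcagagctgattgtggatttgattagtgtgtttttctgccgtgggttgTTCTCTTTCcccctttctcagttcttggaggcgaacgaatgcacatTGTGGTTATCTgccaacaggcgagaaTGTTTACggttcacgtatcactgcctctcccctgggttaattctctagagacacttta

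The members with the highest lung accessibility were at Baiap2l1 (chr5:144283709-144284008) and Sptssa (chr12:54459381-54459680), the first with a FOX match in capitals.
Baiap2l1: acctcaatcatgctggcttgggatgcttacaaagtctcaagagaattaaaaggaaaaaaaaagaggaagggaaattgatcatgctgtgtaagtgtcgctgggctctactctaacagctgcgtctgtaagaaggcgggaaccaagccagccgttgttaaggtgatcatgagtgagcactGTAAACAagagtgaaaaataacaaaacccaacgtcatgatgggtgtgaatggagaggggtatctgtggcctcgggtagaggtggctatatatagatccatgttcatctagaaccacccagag
Sptssa: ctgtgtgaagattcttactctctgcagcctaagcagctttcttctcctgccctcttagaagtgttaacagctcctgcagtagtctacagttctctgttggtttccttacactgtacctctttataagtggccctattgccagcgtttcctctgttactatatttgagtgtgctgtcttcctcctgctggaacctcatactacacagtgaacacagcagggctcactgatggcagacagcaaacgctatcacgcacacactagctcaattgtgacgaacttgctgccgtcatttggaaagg

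Summed over the 29 members, accessibility was 271 to 281 CPM in the 4 lung libraries and 74.8 to 81.9 CPM in the 6 spleen libraries. Mean lung levels ran from 3.50 CPM (Sgcd) to 37.5 CPM (Baiap2l1), with a median of 6.69 CPM, and mean spleen levels from 0.506 to 14.5 CPM. The median over all autosomal peaks was 3.37 CPM in lung and 3.22 CPM in spleen. The ratio of lowest lung to highest spleen library was 5.32 at Dusp10-3, 4.57 at Hip1r-2, 4.30 at Tnfaip3 and 3.46 at Gramd3, and between 2.01 and 2.65 at the other 25. The median coefficient of variation between libraries of a group was 14.6% in lung control, 11.7% in lung Vps34-deficient, 21.9% in spleen control and 17.5% in spleen Vps34-deficient Treg cells.

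**Figure D2:**
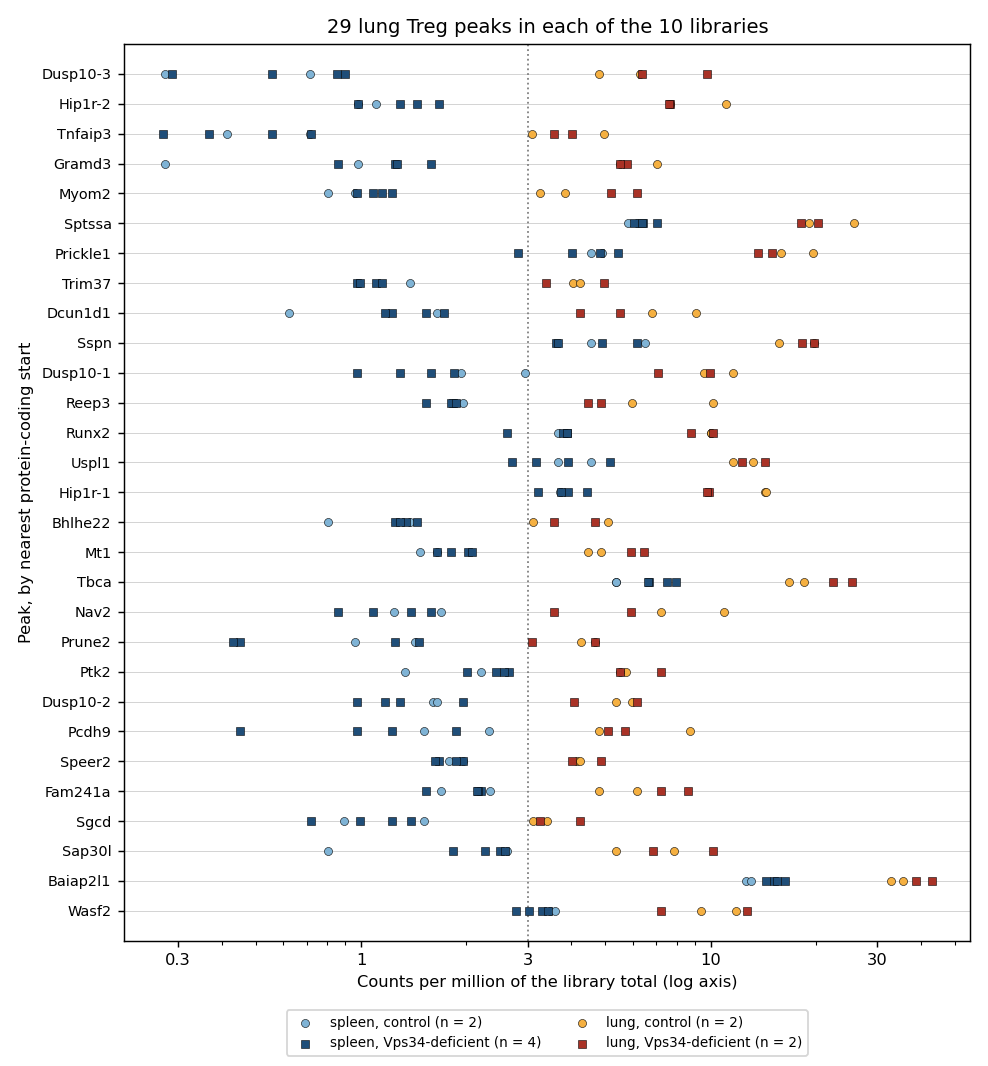
CPM (log axis) of the 29 lung Treg peaks in each library, ordered by the ratio of lowest lung to highest spleen library. Circles are control and squares Vps34-deficient libraries, and the dotted line is the 3 CPM minimum. Lung and spleen points are apart in each row because the peaks were chosen that way, and control and Vps34-deficient points are mixed within most rows.

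Genes of 2 signalling inhibitors lay beside members with the largest and the third largest ratio. Dusp10 encodes a phosphatase that switches off the stress kinases p38 and JNK. Dusp10-3 (chr1:184075694-184076228, intergenic) began 58 bases past the 3′ end of the gene. It had 6.27 and 4.80 CPM in lung control and 9.75 and 6.35 CPM in lung Vps34-deficient Treg cells, against 0.713 and 0.276 CPM in spleen control and 0.556, 0.856, 0.903 and 0.287 CPM in spleen Vps34-deficient Treg cells. The lowest lung library was thus lung control replicate 2, and the Vps34-deficient lung libraries were the higher ones. Dusp10-1 (chr1:183803342-183804122, in an intron of the annotated gene Gm34068) lay 209 kb before the gene, with 9.57 and 11.6 CPM in lung control, 7.07 and 9.95 CPM in lung Vps34-deficient, 2.94 and 1.93 CPM in spleen control and 0.974, 1.59, 1.85 and 1.29 CPM in spleen Vps34-deficient libraries. Dusp10-2 (chr1:183933853-183934223, intergenic, 79.1 kb before the gene) was weaker, at 5.95 and 5.36 CPM in lung control and 4.06 and 6.14 CPM in lung Vps34-deficient libraries, and 0.974 to 1.96 CPM in spleen. In both, the genotypes overlapped in lung, and in spleen the Vps34-deficient libraries were all below the controls at Dusp10-1 and overlapped them at Dusp10-2.

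Other peaks of the Dusp10 region were not chosen by the rule. Of 57 other peaks between 314 kb before and 382 kb after the annotated gene start, 12 had every lung library above every spleen library, as 7.79% of all autosomal peaks did, and 17 had the lower mean in lung. The peak at the start had mean levels of 9.78 CPM in lung and 11.0 CPM in spleen, and the strongest peak, 20.7 kb into the gene, 228 and 224 CPM. A peak 52.9 kb from the start, between that peak and Dusp10-3, was at 48.8 CPM in lung and 20.95 CPM in spleen, with a ratio of 1.44, under the minimum. By edgeR this peak was higher in Vps34-deficient than in control lung (log2 fold change 0.73, Benjamini-Hochberg adjusted p = 0.00152), as were 4 more of the 60 peaks of the region, none of them a member. Of all peaks tested, 1.22% were called higher in lung.

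Tnfaip3 encodes A20, a ubiquitin-editing enzyme that holds back NF-kB signalling. Its member (chr10:19000585-19000778, intergenic) lay 132 bases past the 3′ end of the gene and had 3.08 and 4.94 CPM in lung control, 3.57 and 4.02 CPM in lung Vps34-deficient, 0.713 and 0.413 CPM in spleen control and 0.556, 0.367, 0.271 and 0.718 CPM in spleen Vps34-deficient libraries. It was among the weakest members in lung, and the genotypes overlapped in both tissues. The next peak, 15.4 kb from the start, had a similar difference (4.36 against 0.714 CPM, ratio 2.22) but fell short of 3 CPM in 1 or more lung libraries. At the Tnfaip3 start itself, 62.8 CPM in lung stood against 59.3 CPM in spleen.

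Runx2, a transcription factor of the Runt family known for bone and also made in T cells, had 1 member in an intron (chr17:44745178-44745749). Its levels were 9.99 and 10.0 CPM in lung control and 8.77 and 10.2 CPM in lung Vps34-deficient libraries, and 3.65 and 3.86 CPM in spleen control and 3.89, 3.79, 2.62 and 3.88 CPM in spleen Vps34-deficient libraries. The 4 lung values lay close together. Of 38 other peaks in or within 50 kb of Runx2, 3 had every lung library above every spleen library (7.79% of all autosomal peaks), and 18 had the lower mean in lung. Calls lower in Vps34-deficient lung were made at 5 of them, where 3.74% of all peaks tested were lower, and the member was not called.

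The members that follow are arranged by what the named gene is known for, an order chosen after the values were seen and not a tested grouping. Hip1r encodes a protein that links clathrin coats to actin in endocytosis. Hip1r-1 (chr5:124000837-124001325), whose centre lay in a coding exon 0.482 kb from a transcript start, had 14.4 and 14.4 CPM in lung control and 9.91 and 9.74 CPM in lung Vps34-deficient libraries, and 3.20 to 4.42 CPM in spleen. Hip1r-2 (chr5:124002598-124003086), in an exon outside the coding part, had 7.65 and 11.1 CPM in lung control, 7.63 and 7.62 CPM in lung Vps34-deficient, 0.980 and 1.10 CPM in spleen control and 1.67, 0.979, 1.44 and 1.29 CPM in spleen Vps34-deficient libraries. At both, each lung Vps34-deficient library was below each lung control library, by a narrow margin at Hip1r-2, and neither passed the genotype test given below. Another peak, 33.5 kb from the gene start and nearest to Vps37b, had a ratio of 5.47 but a mean of 3.05 CPM in lung, missed the 3 CPM minimum and was lower in Vps34-deficient lung (log2 fold change -2.17, edgeR adjusted p = 0.0134). Of the 14 peaks at Hip1r, 3 were called by edgeR in lung, all lower in Vps34-deficient cells (3.74% of all peaks tested were lower), and the peak at the gene start was level between the tissues (13.1 and 13.1 CPM).

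**Figure D3:**
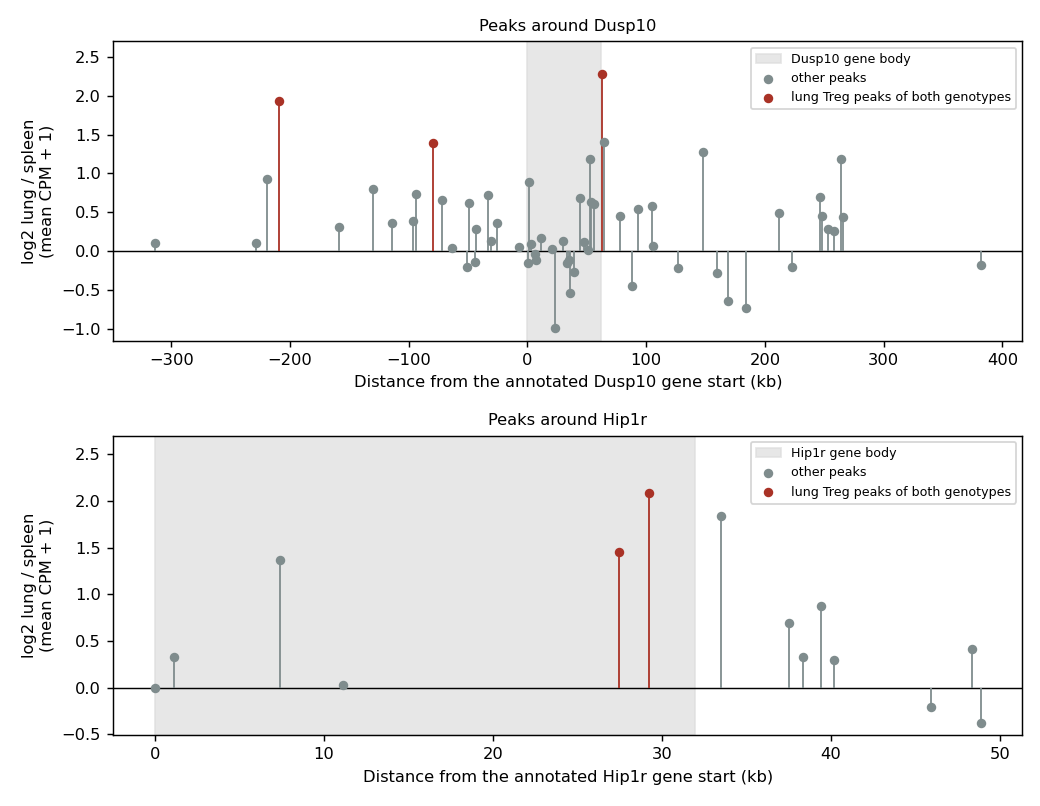
The log2 ratio of mean lung to mean spleen accessibility (1 CPM added to each) for every peak around Dusp10 and Hip1r, by distance from the annotated gene start in kb. Members are red, other peaks grey, and the gene body is shaded. The members are high because they were chosen by this difference, and the peak nearest each gene start lies near 0.

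Baiap2l1, which encodes a protein that bends membranes and binds actin, had the most open member (chr5:144283428-144284289, intron). It had 35.5 and 32.7 CPM in lung control, 38.7 and 43.0 CPM in lung Vps34-deficient, 12.7 and 13.1 CPM in spleen control and 16.3, 15.2, 14.4 and 15.5 CPM in spleen Vps34-deficient libraries. In each tissue the Vps34-deficient libraries were the higher ones, without overlap, and its ratio of 2.01 was close to the minimum of 2. Wasf2, an activator of branched actin, had a member in an intron (chr4:133162190-133162646) with a mean of 10.3 CPM in lung and 3.26 CPM in spleen and the smallest ratio of all, 2.01. The members in introns of Ptk2, the focal adhesion kinase gene (chr15:73236151-73236361), and of Nav2, which encodes a cytoskeletal guidance protein (chr7:49251296-49251638), averaged 5.99 and 6.92 CPM in lung and 2.20 and 1.31 CPM in spleen. Prickle1, of the planar cell polarity pathway, was the nearest coding gene of a stronger member 113 kb before it (chr15:93708604-93708911, in an intron of the annotated gene Gm41386), with 16.1 CPM in lung and 4.42 CPM in spleen.

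Sptssa, a small subunit of the enzyme that starts sphingolipid synthesis, was the nearest coding start of a strong but distant member (chr12:54459246-54459815, intergenic, 186 kb past the gene). Its levels were 19.1 and 25.7 CPM in lung control and 18.2 and 20.3 CPM in lung Vps34-deficient libraries, with 5.79 to 7.03 CPM in spleen, where the 6 libraries were nearly level. Reep3, which shapes the endoplasmic reticulum, held a member in an intron (chr10:67040755-67041160) with 5.95 and 10.2 CPM in lung control and 4.87 and 4.45 CPM in lung Vps34-deficient libraries, against 1.53 to 1.96 CPM in spleen. The member named by Bhlhe22 (chr3:18123889-18124098) lay in an intron of Cyp7b1, an oxysterol hydroxylase gene, at 4.11 CPM in lung and 1.25 CPM in spleen. At Reep3 the lung Vps34-deficient libraries were the lower ones without overlap, and at Sptssa and Bhlhe22 the genotypes overlapped in lung.

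Tbca encodes a tubulin folding cofactor, and its member (chr13:94833020-94834031, intron) had 16.8 and 18.5 CPM in lung control, 25.3 and 22.4 CPM in lung Vps34-deficient, 5.35 and 5.37 CPM in spleen control and 7.51, 7.95, 6.68 and 6.60 CPM in spleen Vps34-deficient libraries. The Vps34-deficient libraries were above the controls in both tissues. The members at Trim37, a ubiquitin ligase gene (chr11:87192400-87192810, intron), and at Dcun1d1, whose product helps attach Nedd8 to cullins (chr3:35940182-35941023, in an intron of the annotated gene Gm15952), averaged 4.15 and 6.42 CPM in lung and 1.10 and 1.32 CPM in spleen. The member named by Uspl1 (chr5:149162973-149163240) lay in an intron of Hmgb1, a chromatin protein that also acts as a danger signal outside cells, at 12.8 and 3.85 CPM, and that named by Sap30l (chr11:57732240-57732451) in an intron of Galnt10, a gene of O-glycan synthesis, at 7.55 and 2.10 CPM. The member near Mt1, a metallothionein gene (chr8:94187572-94187781, 7.25 kb past the gene), had 5.43 CPM in lung and 1.78 CPM in spleen.

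Sspn, Sgcd and Myom2 are known from muscle. Sspn, which encodes sarcospan, had a strong member 6.24 kb before the gene (chr6:145924641-145925406, intergenic), with 19.8 and 15.7 CPM in lung control, 19.8 and 18.2 CPM in lung Vps34-deficient, 4.55 and 6.47 CPM in spleen control and 3.62, 3.67, 4.87 and 6.17 CPM in spleen Vps34-deficient libraries. Lung values here were level, and spleen values varied more. The members named by Sgcd, the delta-sarcoglycan gene (chr11:48242202-48242411), and by Myom2, a sarcomere gene (chr8:15468728-15468937), lay 253 and 335 kb from those genes, and neither had another peak within 50 kb. They averaged 3.50 and 4.60 CPM in lung and 1.12 and 1.03 CPM in spleen. Of the remaining 5 members, Gramd3 (chr18:56489930-56490248, in an exon outside the coding part) had the fourth largest ratio, with 7.02 and 5.50 CPM in lung control, 5.77 and 5.50 CPM in lung Vps34-deficient, 0.980 and 0.276 CPM in spleen control and 1.25, 1.59, 1.26 and 0.861 CPM in spleen Vps34-deficient libraries. The 4 others, named by Prune2, Pcdh9, Speer2 and Fam241a and all intergenic, averaged 4.16 to 6.69 CPM in lung and 0.999 to 2.01 CPM in spleen.

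The threshold cut through a continuous range. Inside it, the smallest ratios were 2.01 (Wasf2), 2.01 (Baiap2l1) and 2.05 (Sap30l), and just outside it were peaks nearest to Man1a2 (1.99), Adgrl2 (1.98) and Gpatch2 (1.97). At any lung level, 140 autosomal peaks had a ratio of at least 2, of which 111 had a lung library under 3 CPM. Every lung library was above every spleen library at 7364 autosomal peaks (7.79%), and 211 had a ratio of at least 1.5 with at least 3 CPM. Within controls alone the rule was met by 1631 peaks and within Vps34-deficient libraries alone by 1788, and 306 peaks met it in both, which is 18.8% of the first list and 17.1% of the second. The 29 are those of the 306 where lung also exceeded spleen by 2 times across the genotypes.

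Members seldom lay at gene starts. Only Hip1r-1 was within 1 kb of an annotated start, 1 of 29 (3.45%, exact 95% binomial interval 0.0873% to 17.8%), against 21.7% of all autosomal peaks and 8.33% of the 60 peaks that met the reversed rule for spleen. By the position of the peak centre, 14 members were in introns (48.3%, against 48.9% of all), 12 intergenic (41.4%, against 36.5%), 1 in a coding exon and 2 in other exons. The median distance to a start was 6.86 kb, against 9.08 kb for all peaks, with 12 members (41.4%) over 10 kb away, against 47.8%. Over 50 kb away were 8 members (27.6%), against 13.5% of all peaks. The comparisons of median distance and of the share over 10 kb turn round for the 762 peaks that passed without lung control replicate 2. Those had a median distance of 23.1 kb, 69.3% over 10 kb and 34.8% over 50 kb away, and 4.46% within 1 kb. The median width of the 29 members was 410 bases, against 328, the median GC content of the central window 46.7%, against 48.7%, and the median share marked as repeats 11.2%, against 9.88%. Intervals cover counting error only.

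Peaks around the members were also examined. Within 50 kb of 26 members lay 250 other peaks, some counted for 2 members at Hip1r, and 34 of these (13.6%) had every lung library above every spleen library. For all autosomal peaks that share was 7.79%. A mean in lung over 2 times that in spleen was seen at 38 of the 250 (15.2%), against 15.4% of all. At Fam241a, Ptk2, Dcun1d1, Wasf2 and Tbca, most neighbours had the lower mean in lung (10 of 12, 7 of 8, 7 of 8, 7 of 12 and 6 of 9). The same held at Tnfaip3 (8 of 15), Reep3 (6 of 11) and Sap30l (5 of 9). At Gramd3 5 of 16 and at Hip1r-2 4 of 19 had every lung library higher, and at Prune2 5 of 7 had over 2 times the spleen mean. The share of all autosomal peaks with the lower mean in lung was not counted.

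The effect of Vps34 loss was tested by edgeR's quasi-likelihood model over 97109 peaks, with a call at a Benjamini-Hochberg adjusted p under 0.05 and an absolute log2 fold change over 0.5. Because each lung library had to be high and each spleen library low in both genotypes, a peak far apart between the genotypes was less likely to be a member. This holds for either direction and either tissue, and does not exclude such a peak. The counts in both tissues and the interaction must be read with that limit. In lung, 0 of 29 members were called lower, where 3.74% of all peaks were, and 0 higher, where 1.22% were. An unadjusted edgeR p under 0.05 was found at 4 members in lung (3 with lower and 1 with higher accessibility in Vps34-deficient cells), where 20.3% of all peaks had one. DESeq2 called 0 in lung. The share of all peaks called by DESeq2 was not counted for any contrast, so its counts of 0 have no background beside them. In spleen, 0 of 29 were called lower (1.02% of all peaks) and 0 higher (0.441%), with 3 members at an unadjusted p under 0.05 (14.3% of all peaks) and 0 called by DESeq2. For the interaction, which asks whether the genotype difference differs between lung and spleen, edgeR called 0 members and 0% of all peaks, with 1 member at an unadjusted p under 0.05 (7.27% of all) and 0 called by DESeq2.

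The median log2 fold change of the members was -0.11 in lung and -0.08 in spleen, against 0.02 and 0.05 over all peaks tested. The lung median turned to 0.11 when lung control replicate 1 was left out, to 0.03 when its fellow control library was, and to 0.04 when replicate 1 of the lung Vps34-deficient group was, so its sign rests on single libraries. In lung, the Vps34-deficient libraries were both above the controls at 6 members (20.7%, against 23.7% of autosomal peaks), both below at 6 (22.2% of autosomal peaks) and overlapping at 17. In spleen they were all above at 3 members and all below at 2, where 14.9% and 11.3% of autosomal peaks were, and overlapping at 24. The 95% interval of the fold change stayed between -1 and 1 on the log2 scale, which is within 2-fold, for 16 members in lung and 17 in spleen. For the others a 2-fold difference was not outside the interval, so that absence of a call does not show equal accessibility.

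Nav2 had the lowest lung value. Its member was at 7.23 and 10.9 CPM in lung control and 3.57 and 5.93 CPM in lung Vps34-deficient libraries, with no overlap (log2 fold change -0.99, SE 0.34, edgeR adjusted p = 0.0957). Reep3 and Hip1r-1 had log2 fold changes of -0.83 (SE 0.31, edgeR adjusted p = 0.130) and -0.57 (SE 0.22, edgeR adjusted p = 0.144) in lung. The values of Reep3 and Nav2 rest partly on single libraries: Reep3 ran from -1.04 without lung control replicate 1 to -0.33 without replicate 2, and Nav2 from -1.30 without lung Vps34-deficient replicate 2 to -0.57 without replicate 1, with -0.60 without lung control replicate 2. At Hip1r-2, -0.33 became 0.02 without lung control replicate 2. On the other side stood Tbca, at 0.41 in lung (SE 0.19, edgeR adjusted p = 0.220) and 0.42 in spleen (SE 0.18, edgeR adjusted p = 0.272). The largest lung value, 0.66 at Myom2, came with an SE of 0.35 and an edgeR adjusted p of 0.298. The spleen values ran from -0.83 at Pcdh9 to 0.89 at Gramd3 (edgeR adjusted p = 0.352 and 0.331). The 3 Dusp10 members were at -0.35, -0.18 and 0.54 in lung (edgeR adjusted p = 0.521, 0.813 and 0.440), and with each library left out in turn they ran from -0.53 to -0.04, from -0.42 to 0.17 and from 0.25 to 0.88, the ends being set by leaving out lung Vps34-deficient replicate 1 or 2. Dcun1d1 had the largest interaction value (-1.10, edgeR adjusted p = 0.684).

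**Figure D4:**
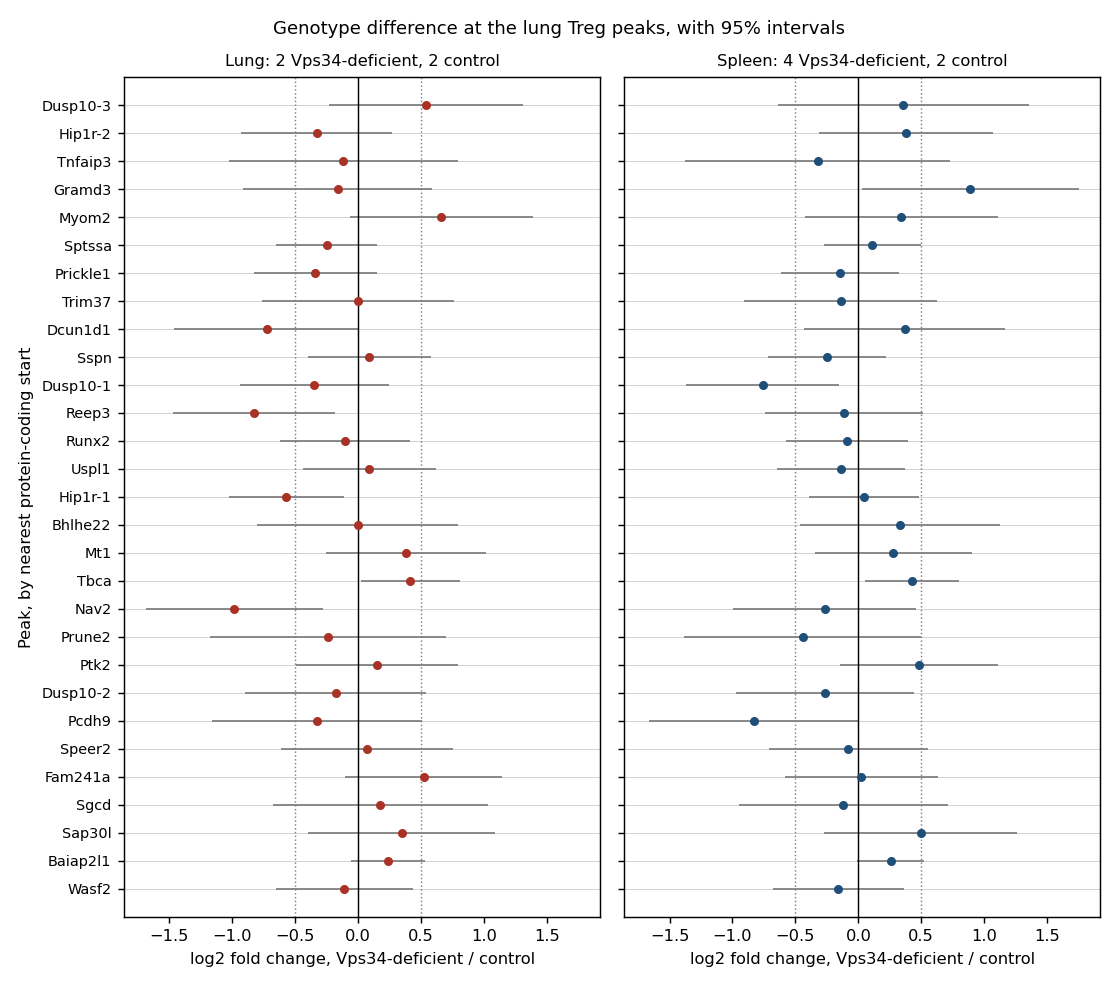
Log2 fold change between Vps34-deficient and control Treg cells at each of the 29 lung Treg peaks in lung (left) and spleen (right), with 95% intervals from edgeR. The dotted lines mark 0.5 and -0.5. Most intervals cross 0, and 0 members passed the adjusted test in either tissue.

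A ratio of at least 1.5 was met by 211 peaks. Of these, 3 were called lower and 3 higher in Vps34-deficient lung, where 3.74% and 1.22% of all peaks were, and 1 higher in spleen, where 0.441% were. These were named after their values were seen. The smallest adjusted p belonged to a peak 11.96 kb from the start of Ccr7, the receptor that draws T cells into lymph nodes. It had 14.7 and 13.5 CPM in lung control and 28.0 and 27.0 CPM in lung Vps34-deficient libraries, and 4.19 to 6.96 CPM in spleen (log2 fold change 0.94, SE 0.21, edgeR adjusted p = 0.00872). The other peaks called higher in Vps34-deficient lung were nearest to Sgip1 (0.68) and Tmem108 (0.56), those called lower to Mrps27 (-0.79), Edil3 (-0.88) and Dcaf17 (-0.68), and the one higher in Vps34-deficient spleen to Cdh20 (1.07).

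The members were set against 8 lists of genes, taking peaks in a gene or within 10 kb. None was at any of 34 tissue and effector Treg genes (315 peaks), 15 resting and lymphoid-homing genes (353), 27 chemokine receptor and migration genes (264), 21 AP-1 and bZIP factor genes (162), 19 T helper genes (182) or 16 receptor genes of the IL-2, IL-33 and IL-1 families (118). Tnfaip3 was the only member at 20 receptor-induced factor genes (247 peaks) and Runx2 at 20 TGF-beta and residency genes (279 peaks). Widening the margin to 50 kb added no member to any list. These 2 are 6.90% of the members, and the peaks of the 8 lists together are 1.77% of autosomal peaks, a difference that 2 peaks make. Every lung library was above every spleen library at 8 and below at 29 of the 247 receptor-induced factor peaks, among which Tnfaip3 lies, and above at 15 and below at 33 of the 353 resting and lymphoid-homing peaks. These counts were 18 and 15 for TGF-beta and residency peaks, 21 and 22 for tissue and effector Treg peaks, 13 and 20 for chemokine receptor and migration peaks, 10 and 8 for AP-1 and bZIP factor peaks, 11 and 11 for T helper peaks and 8 and 3 for the cytokine receptor peaks. Of all autosomal peaks, 7.79% were above and 7.94% below in this way.

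The same list peaks did contain genotype calls by edgeR. In Vps34-deficient lung, 43 of 314 tested tissue and effector Treg peaks were called, all of them lower, where 3.74% of all peaks were lower and 1.22% higher. In spleen 14 of these 314 were called, again all lower, where 1.02% of all peaks were lower and 0.441% higher. Summed over the peaks of this list, lung control libraries had 4041 and 4881 CPM and lung Vps34-deficient libraries 3929 and 3637 CPM. The size of that gap thus rests largely on lung control replicate 2, and the lung calls without it were not counted. Of the receptor-induced factor peaks 19 of 247 were lower and 2 higher in lung, and of the TGF-beta and residency peaks 21 of 279 lower and 5 higher. For the resting and lymphoid-homing peaks the numbers in lung were 6 lower and 8 higher of 351, for chemokine receptor and migration peaks 15 and 1 of 263, for AP-1 and bZIP factor peaks 3 and 5 of 162, for T helper peaks 14 and 5 of 181, and for the cytokine receptor peaks 7 and 1 of 118. The lists were chosen with earlier results of these data known, and these counts are descriptions.

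Marker genes of other cell types were examined in the same way. Peaks at 14 lung epithelium genes (among them Nkx2-1, Epcam and Sftpc) summed to 616 to 692 CPM in lung and 492 to 563 CPM in spleen, and those at 12 myeloid genes (such as Spi1 and Csf1r) to 435 to 484 and 364 to 406 CPM, without overlap between tissues. Endothelial genes gave 461 to 487 CPM in lung and 432 to 464 CPM in spleen, and fibroblast genes 107 to 127 and 109 to 129 CPM, with overlap. Peaks with every lung library above every spleen library, against those with every one below, numbered 6 against 3 of 39 for lung epithelium, 3 against 4 of 43 for myeloid genes, 8 against 2 of 69 for endothelium and 0 against 2 of 39 for fibroblasts. The same counts were 7 against 1 of 45 for B cells, 2 against 3 of 37 for ILC2, mast cells and basophils and 2 against 0 of 26 for CD8 T and NK cells, where all autosomal peaks had 7.79% against 7.94%. Sftpa1, Sftpd, Lyz2, Adgre1, Tie1, Cldn5, Tcf21, Dcn and Fcer1a were among the marker genes with no peak within 10 kb. At the 10 Treg and T cell identity genes, 1 of 142 peaks had every lung library above every spleen library and 18 had every one below. No member lay in or within 50 kb of any marker gene. What part other cells have in the 29 peaks was not tested, and more cells of a type cannot be told apart from more open chromatin per cell.

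Motif letters were counted in the central 300 bases, on both strands, for 14 motifs. For 9 members and 42.7% of autosomal peaks, which are narrower than that, the window reached past the ends of the peak. The FOX letters TGTTTAC were in 5 of 29 members (17.2%, exact 95% binomial interval 5.85% to 35.8%), namely Trim37, Tbca, Runx2, Baiap2l1 and Nav2, and in 4.33% of all autosomal peaks. The ROR letters TAGGTCA were in 3 members (10.3%, 2.19% to 27.4%), Dcun1d1, Speer2 and Bhlhe22, and in 2.68% of all. GATA letters (AGATAA) were in 6 members, which is 20.7% of them, against 14.97% of all peaks. Letters of the IRF motif (GAAANNGAA) were in 5, or 17.2% against 11.2%. For RUNX (TGTGGTT) the number was 4, or 13.8% against 10.8%. AP-1 letters (the heptamer TGANTCA) were also in 4 members, at Dusp10-1, Dusp10-2, Prune2 and Bhlhe22, and so at 13.8% against 13.0%. The match at Bhlhe22 lay outside its peak, and over whole peaks the AP-1 letters were in 5 members (17.2%, against 16.05% of all). The letters of TCF/LEF (CTTTGAT) and of C/EBP (TTGCNNCAA) were each in 2 members, and those of the T-box (AGGTGTGA) and KLF (GGGTGTGG) motifs each in 1. In these windows no member held the letters of ETS (CCGGAAGT), NF-kB (GGAATTTCC), NR4A (AAAGGTCA, which shares letters with ROR) or NKX2-1 (CACTTGAG), and 0 of 29 allows a share of up to 11.9% by the exact interval. Over whole peaks the NKX2-1 letters were in 1 member (3.45%, against 1.75% of all). By the same whole-peak count GATA letters were in 9 members (31.0%, against 18.2%) and IRF letters in 8 (27.6%, against 14.1%). Among the 762 peaks that passed without lung control replicate 2 the FOX share was 4.72% and the ROR share 3.94%. With 14 motifs and 29 peaks a few matches set each share, and a match of letters is not a bound site.

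**Figure D5:**
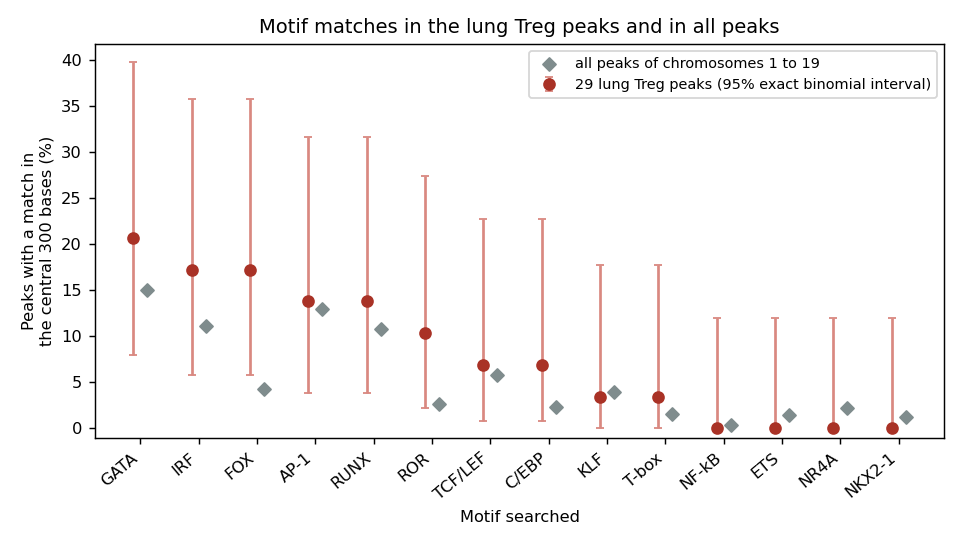
Share of peaks with each motif's letters in the central 300 bases (percent): the 29 lung Treg peaks as circles with exact 95% binomial intervals and all autosomal peaks as diamonds. The FOX circle is at 17.2% against 4.33%, outside its interval, and for the 13 other motifs the value of all peaks is inside the interval.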

How the data were processed

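Treg cells of spleen and lung were profiled. The authors trimmed the ATAC-seq reads, aligned them, removed duplicates, shifted reads for the transposase, kept nucleosome-free fragments and called peaks per library. Peaks had to appear in 50% or more of a genotype's libraries, the rest were dropped, and those kept were merged, and reads were counted in them; the deposited table holds these raw counts for 10 libraries on GRCm38. The submitters' processing notes name cutadapt 1.9, Picard 1.65, SAMtools, MACS2 2.1.0.20150603 and bedtools; the study's methods name an older mouse build, and 51.2% of 21951 coding starts in the GRCm38 annotation fell in a peak, against 2.82% and 2.67% after shifts of 100 kb. Groups follow the labels (2 control and 4 Vps34-deficient spleen libraries), where the study's methods give the reverse.

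Members were found from CPM. Genotype was tested with edgeR 4.0.16 (quasi-likelihood, TMM scaling, filterByExpr) in R 4.3.3 on 4 groups and all 10 libraries, with a contrast within each tissue and their interaction, and Benjamini-Hochberg adjustment over 97109 peaks. The scripts were tested on simulated data. DESeq2 1.42.0, other scalings, filters, rule settings and libraries left out in turn were alternatives. Peaks were annotated with GENCODE M21, and windows that overlap an annotated exon are not printed. Members to describe were ranked by ratio and by lung level, and others are named as chosen later; counts of members are set beside those of all peaks. Exact binomial intervals used scipy 1.17.1. The members, gene lists and motifs were chosen with earlier results of these data known.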

Additional observations from a re-analysis of the deposited data

Results flagged for a closer look

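In the group of 4 spleen Vps34-deficient libraries, the only group large enough for the test, 1 library lay far from the other 3 at 2 of 29 members. At Runx2, replicate 3 was lowest at 2.62 CPM, with the others at 3.79 to 3.89 CPM. At Fam241a, replicate 1 was lowest at 1.53 CPM, with the others at 2.15 to 2.20 CPM. In both, the gap to the nearest library took a larger part of the range than Dixon's 95% critical value, which chance exceeds in about 1 of 20 groups. The 2 of 29 are close to that share, and the share over all peaks was not counted. The rule also capped the highest spleen library, so a high outlier in spleen was less likely to be kept than a low one.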

How the results depend on the processing

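The number of lung Treg peaks depended on the rule. A ratio of 1.5 gave 211 peaks and a ratio of 3 gave 4, and a minimum of 1 CPM gave 116 and of 5 CPM 14. TMM scaling gave 41 and median-of-ratios scaling 38, both including the 29. With libraries left out in turn the number ran from 31 to 762, the latter without lung control replicate 2; it was 56 without lung Vps34-deficient replicate 1, and 45 and 46 without spleen Vps34-deficient replicates 1 and 4. With the peaks of ratio 1.5, 3 were called lower and 3 higher in Vps34-deficient lung and 1 higher in spleen, and the spleen median log2 fold change was 0.22 (0.37 with ratio 3). The 29 members had 0 genotype calls under every other setting run, DESeq2 and counts halved for paired reads (added after seeing the data) included. They also had 0 with any library left out, when the lung median ran from -0.12 to 0.11 and the spleen median from -0.13 to 0.01. The shares of all peaks called in these runs were not counted, so these counts of 0 have no background beside them. Of the members' lung fold changes, 232 of 232 under other settings and 275 of 290 with a library left out stayed within 1 SE. The promoter share was 6.90% within 2.5 kb of a start, against 29.4% of autosomal peaks. With whole peaks in place of windows the FOX share was 20.7%, against 5.61%. The cause of these differences was not tested.

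Replicate numbers did not pair the libraries (correlations of same-numbered libraries -0.0978 to 0.0633). With a replicate block the median log2 fold change was -0.11 in lung and 0.10 in spleen, with 0 members called. Members had as few as 4 counts in a spleen library and 29 in a lung library, which limits the precision of their fold changes.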
